A study of Homo sapiens with 9 samples.

Results

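The mitochondrial ribosomal protein genes were followed in BEAS-2B cells, an immortalized line derived from normal human bronchial epithelium. Members were the protein-coding genes whose symbol begins with MRPL or MRPS and a digit, together with DAP3, that reached at least 10 counts in at least 3 of the 9 libraries. By symbol and biotype there were 79 such genes, and 78 of them passed, of 16030 genes tested and 63187 genes in the count table. The gene that did not pass, MRPL53, had 0 counts in all 9 libraries. Exons of other genes, on either strand, cover 99.4% of its exon length, and reads over several genes were left out of the counts. Of the 78 members, 50 encode proteins of the large subunit, MRPS30 and MRPS18A among them, and 27 encode proteins of the small subunit. The remaining member, MRPS36, belongs by its symbol only, since its product is a component of the alpha-ketoglutarate dehydrogenase complex.

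The mitoribosome translates the few messages of mitochondrial DNA, whose products are all subunits of the oxidative phosphorylation complexes. Its ribosomal RNAs come from mitochondrial DNA, whereas its proteins are encoded in the nucleus, made in the cytosol and imported into the matrix. The small subunit reads the message, and the large subunit joins the amino acids and carries the tunnel through which the new chain leaves.

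Poly-A RNA was sequenced from 3 conditions with 3 libraries each, 1 per condition in each of the batches labelled 2, 3 and 4. Untreated BEAS-2B cells were the control. PG/VG cells were exposed for 24 h to aerosol condensate of the carrier, propylene glycol and vegetable glycerine, without flavor or nicotine, and EC cells were exposed for 24 h to condensate of an e-cigarette liquid with Virginia tobacco flavor and 18 mg/ml nicotine. Both condensates were used at 2%, and all 3 conditions are cultures of a single cell line grown with serum, so the spread between batches is a spread between cultures and not between people.

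Library totals were 16168260 to 17882770 counts in the control and 18427225 to 24917838 in the treated libraries, so the control libraries were all shallower than the treated ones. The members held 0.347% to 0.415% of the counts of a library. Of 7 epithelial markers, KRT7, KRT8, KRT18 and KRT19 were detected throughout, EPCAM (11 to 47 counts per library) and CDH1 (3 to 31 counts) were low, and KRT5 had at most 1 count, and the mesenchymal genes VIM, CDH2 and FN1 were abundant as well. The summed epithelial markers ranged over 1776 to 2844 CPM (counts scaled to a common library size) in the control, 1721 to 2737 in PG/VG and 1460 to 2287 in EC. The corresponding mesenchymal ranges were 4974 to 6885, 4565 to 6564 and 3473 to 5303 CPM. Of 7 markers of blood and endothelial cells, 4 stayed under 10 counts in every library, but CD14 (58 to 209 counts) and CDH5 (72 to 134 counts) were detected in every library. The part of depth and of these marker levels in the results on the members was not tested, except that depth was evened by thinning.

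The promoters of the members are shown first. RefSeq promoter windows of 300 bases, 250 before and 50 after the annotated start (GRCh38.p14), were matched by symbol for 69 of the 78 members, in 86 windows. Words of 3 factors known from genes for mitochondrial proteins or for the translation apparatus were searched on both strands: 2 copies of GCGC with any 2 bases between them for NRF1, CCGGAAGT for the ETS family and AAGATGGCG for YY1. No word of one factor overlapped a word of another in the windows of members. The YY1 word was present for 13 of the 69 members, 18.8%, against 4.53% of 10588 tested protein-coding genes and 2.14% of all 27305 genes with a window. The ETS word was present for 15.9% of the members, against 9.7% and 4.95%. The NRF1 word was present for 14.5%, against 18.2% and 9.98%, so it was no more common among the members than among the protein-coding genes expressed in these cells. Some members have more than 1 window, and a match is a run of letters and no evidence of binding.

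In 10 of the 13 members the YY1 word lay just after the start, with its first base at position 7 to 36, and in all of these 10 it read in the direction of the gene. The word contains the letters ATG, and whether it lies at a start of translation in these genes was not tested. The sites of 4 members show this arrangement, with 10 bases on either side and the word in capitals, on the strand of the gene. MRPS18B at chr6:30617853-30617881 (+ strand) and MRPL42 at chr12:93467512-93467540 (+ strand) were lower in both exposures, as described further on. MRPS18A at chr6:43687764-43687792 (- strand) and MRPS10 at chr6:42217834-42217862 (- strand) did not pass the threshold in either.
MRPS18B: ggcgtacgtcAAGATGGCGgcgtctgtat
MRPL42: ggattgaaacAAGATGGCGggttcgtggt
MRPS18A: taggtttttgAAGATGGCGgccctcaagg
MRPS10: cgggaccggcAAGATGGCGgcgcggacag

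Of the 12 members that passed the threshold in either exposure, 10 had a window, and 5 of these held a word. Upstream stretches of 4 members follow, as the 120 bases that end just before the start, with the word in capitals. MRPL52 at chr14:22829767-22829886 (+ strand) has 2 YY1 words and an ETS word that spans the start, MRPL3 at chr3:131502972-131503091 (- strand) has an ETS word, and MRPS9 at chr2:105037949-105038068 (+ strand) has an NRF1 word. MRPL12 at chr17:81703247-81703366 (+ strand), whose level fell the most, held none of the 3 words in its window. By word, 1 of the 10 members that passed held the NRF1 word, 2 the ETS word and 3 the YY1 word. Among the members with a window that did not pass, 9 of 59 held the NRF1 word, 9 of 59 the ETS word and 10 of 59 the YY1 word.
MRPL52: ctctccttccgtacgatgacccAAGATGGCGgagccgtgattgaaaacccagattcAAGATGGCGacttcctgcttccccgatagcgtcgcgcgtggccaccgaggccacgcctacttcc
MRPL3: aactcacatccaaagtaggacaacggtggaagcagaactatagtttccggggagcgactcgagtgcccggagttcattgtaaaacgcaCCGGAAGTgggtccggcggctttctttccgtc
MRPS9: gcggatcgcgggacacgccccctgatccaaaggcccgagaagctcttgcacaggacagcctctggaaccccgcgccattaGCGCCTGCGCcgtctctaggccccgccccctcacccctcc
MRPL12: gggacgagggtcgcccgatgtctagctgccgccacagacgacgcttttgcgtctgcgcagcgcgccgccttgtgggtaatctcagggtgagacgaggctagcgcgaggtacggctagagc

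**Figure D1:**
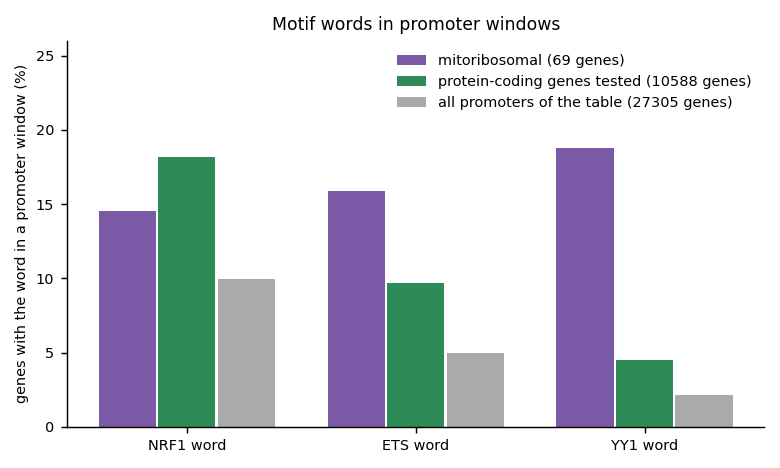
Share of genes, in percent, with at least 1 NRF1, ETS or YY1 word in a promoter window, for the mitoribosomal members, the tested protein-coding genes and all genes of the RefSeq table. The bars for YY1 stand at 18.8%, 4.53% and 2.14%, and for NRF1 the members, at 14.5%, are below the tested genes, at 18.2%.

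All 78 members were expressed in untreated cells, at levels that spanned 52.4-fold. Levels were compared between genes only per length, as TPM, counts per length of each gene's canonical transcript scaled to each library's own sum. The median control level of the members was 89.0 TPM, with 96.7 for the large and 85.3 for the small subunit, against 14.8 over all tested genes with a length. MRPL37, a mitochondria-specific protein of the large subunit, was highest with 313 ± 66.0 TPM (SD, n = 3), followed by MRPL51 with 260 ± 13.5 and MRPL33 with 219 ± 30.7. MRPS25 with 9.68 ± 0.666 TPM, MRPL38 with 6.22 ± 1.68 and MRPS5 with 5.98 ± 1.44 were lowest. In this order 70 of the 77 pairs of neighbours had overlapping ranges over the 3 control libraries, so most neighbours in the order cannot be told apart. Exons of other genes cover 45.9%, 45.1% and 23.3% of the exon length of the last 3 genes, and reads that overlapped more than 1 gene were left out of the counts. Of the 78 members, 19 have at least 20% of their exon length shared with other genes and 36 have a named pseudogene, MRPS21 with 8 having the most, so their absolute levels are uncertain. After exposure MRPL37 had 298 ± 49.0 TPM in PG/VG and 311 ± 50.4 in EC, and MRPL38 had 6.42 ± 0.176 and 5.85 ± 1.39. TPM do not use the library sizes of the fit, as CPM do, and the scales can differ between conditions. For MRPL38 the mean in PG/VG was above the control in TPM but below it in CPM, at 3.40 against 3.49. MRPL51 had a mean of 261 TPM in EC, near its control, but 91.6 CPM in EC against 96.4 in the control. Changes between conditions are therefore given from CPM and the fit.

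The first question was whether the condensate with nicotine and flavor changed the expression of these genes relative to untreated cells. In EC vs. control, 11 of the 78 members were downregulated and 0 upregulated at an adjusted p under 0.05 (edgeR quasi-likelihood test with batch as a block, Benjamini-Hochberg over all tested genes), where 5.38% of all tested genes were downregulated and 8.07% upregulated. At an unadjusted p under 0.05, 24 members were lower and 2 higher, where 12% and 15.4% of all tested genes were. The changes were small. The median log2 fold change (LFC) of the members was -0.13, a change of -8.78%, against a median of 0.0078 over all tested genes, and 69 of the 78 members had an LFC below 0. In 19 members, 24.4%, every EC library lay below every control library, against 7.42% of all tested genes, and 35 members, 44.9%, were lower in all 3 batches, against 21.5%.

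PG/VG vs. control asked the same of the carrier alone. There 7 members were downregulated and 0 upregulated in the same fit, where 1.9% of all tested genes were downregulated and 2.63% upregulated, and at an unadjusted p under 0.05 35 members were lower and 0 higher, where 9.21% and 10.9% of all tested genes were. The median LFC was -0.17, a change of -11.1%, against 0.013 over all tested genes, and 75 of the 78 members had an LFC below 0. In 33 members, 42.3%, every PG/VG library lay below every control library, against 6.37% of all tested genes, and 52 members, 66.7%, were lower in all 3 batches, against 19.9%. Both comparisons use the same 3 control libraries. The 6 members called in both, MRPL12, MRPL4, MRPL42, MRPS18B, MRPS2 and MRPS9, make up 54.5% of those called in EC and 85.7% of those called in PG/VG. MRPL3, MRPL21, MRPL24, MRPL52 and MRPS25 were called in EC vs. control alone and MRPL15 in PG/VG vs. control alone, and the test of EC vs. PG/VG passed for none of these 6 genes.

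**Figure D2:**
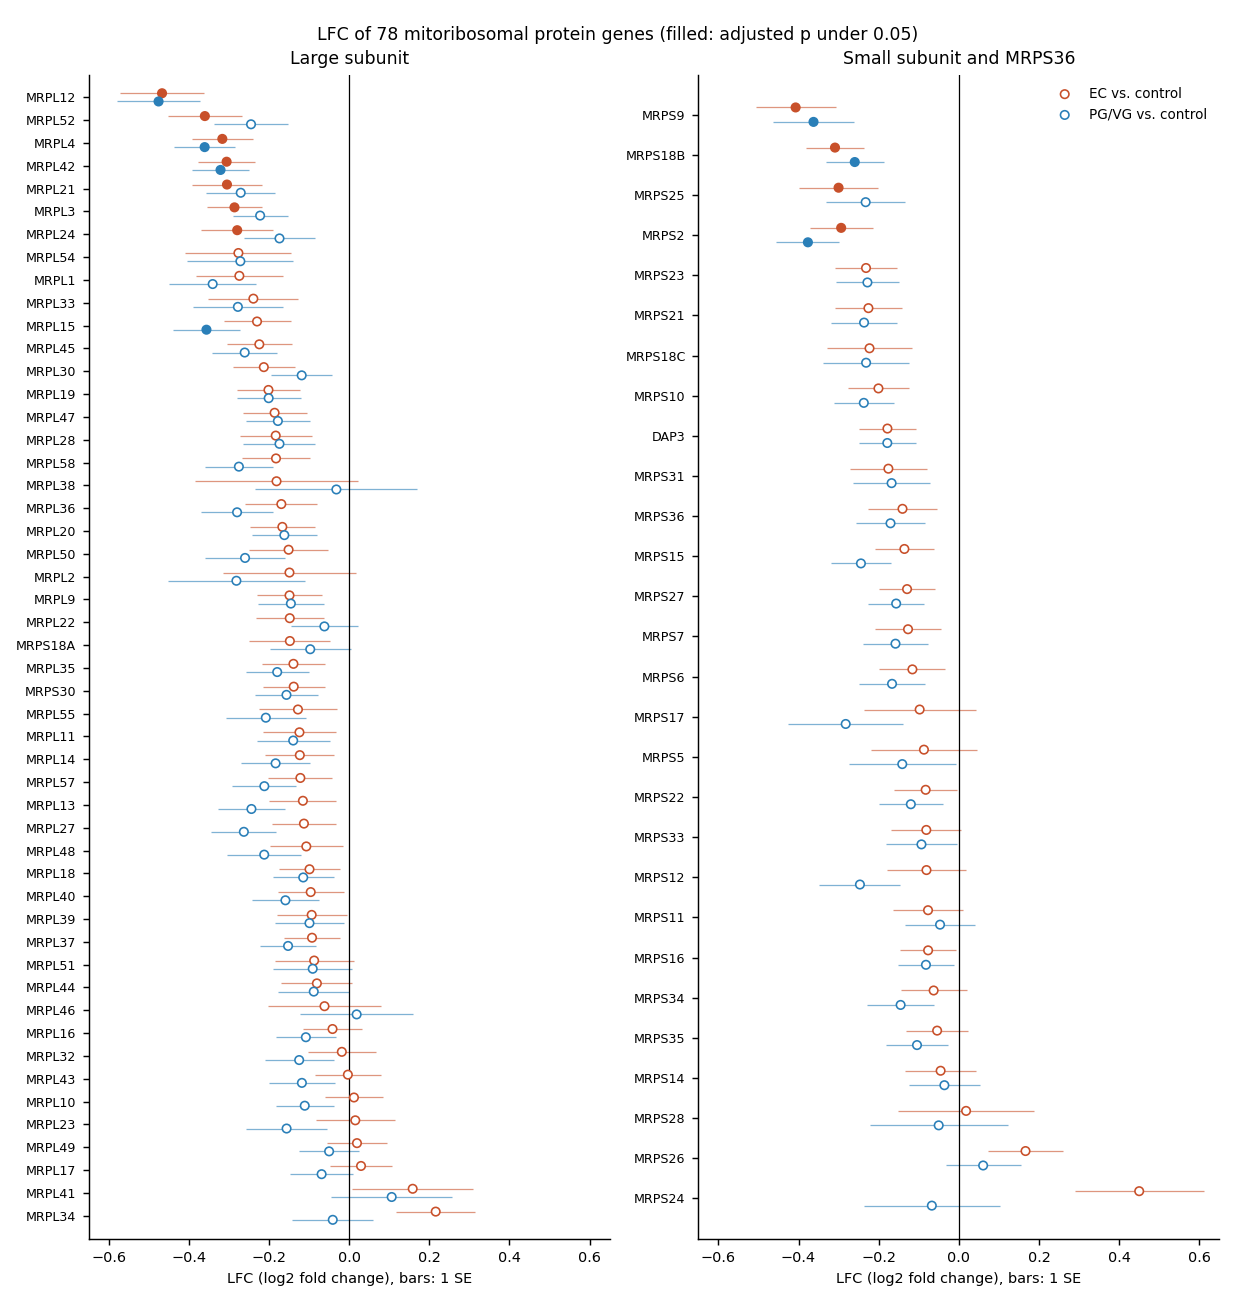
LFC of each of the 78 members with 1 SE, for EC vs. control (orange) and PG/VG vs. control (blue), the large subunit at left and the small subunit with MRPS36 at right. Filled points have an adjusted p under 0.05. Most points lie left of 0, with medians of -0.13 (EC) and -0.17 (PG/VG), and so do all filled points.

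The stalk of the large subunit, where translation factors dock, held the member with the largest fall. MRPL12 (ENSG00000262814, chr17:81703367-81707517) encodes the stalk protein itself. It was measured at 32.7, 35.4 and 40.6 CPM in the control libraries of batches 2, 3 and 4, at 23.9, 30.3 and 24.2 in PG/VG and at 27.3, 23.7 and 27.4 in EC. All 6 treated libraries were thus below all 3 controls. The LFC was -0.47 (SE 0.104, adjusted p = 0.00445, edgeR) in EC and -0.48 (SE 0.104, adjusted p = 0.0105, edgeR) in PG/VG, and the level fell by 27.6% in EC and fell by 28.1% in PG/VG. Without EC replicate 3 the EC call was narrowly lost, at an adjusted p of 0.0535 (edgeR), and the PG/VG call was lost without PG/VG replicate 2, PG/VG replicate 4 or control replicate 4, with an adjusted p of up to 0.104 (edgeR). Exons of other genes, on either strand, cover 69.5% of the exon length of MRPL12. Reads over several genes were left out, but the strand setting is not given, so which stretch its counts come from is uncertain. The proteins at the base of the stalk did not pass, with LFCs for MRPL10 that were 0.01 (EC) and -0.11 (PG/VG), and for MRPL11 -0.12 and -0.14.

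Around the tunnel and the catalytic centre of the large subunit, 3 members with bacterial homologues were lower in EC. MRPL4 (ENSG00000105364, chr19:10251901-10260055), whose bacterial homologue lines the exit tunnel, had 58.9, 63.7 and 60.1 CPM in the control, 48.1, 50.1 and 44.3 in PG/VG and 51.3, 47.9 and 47.5 in EC. The groups did not overlap, and the LFC was -0.32 (SE 0.0761, adjusted p = 0.00751, edgeR) in EC and -0.36 (SE 0.0763, adjusted p = 0.00798, edgeR) in PG/VG. MRPL3, whose homologue reaches toward the peptidyl transferase centre, had 122, 113 and 100 CPM in the control, 101, 96.7 and 89.3 in PG/VG and 99.2, 89.7 and 85.6 in EC. Only EC was below every control library there, with an LFC of -0.29 (SE 0.0687, adjusted p = 0.00745, edgeR). For PG/VG the LFC was -0.22 (adjusted p = 0.0645, edgeR). MRPL24, at the mouth of the tunnel, had an LFC of -0.28 in EC (adjusted p = 0.0407, edgeR), but its level in batch 2 was 41.5 CPM in the control and 41.6 in EC, and EC was lower in batches 3 and 4. MRPL24 was also the member whose level was lowest in batch 4 relative to batches 2 and 3, and its call was lost when any of 5 single libraries was left out.

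MRPL45, which anchors the mitoribosome to the inner membrane beside the tunnel exit, had 66.1, 67.9 and 81.1 CPM in the control, 54.0, 57.4 and 68.3 in PG/VG and 64.9, 55.8 and 62.8 in EC. Its LFC of -0.22 in EC (adjusted p = 0.0687, edgeR) and -0.26 in PG/VG (adjusted p = 0.0649, edgeR) missed the threshold in the main fit. In EC MRPL45 passed in some alternative fits, among them ComBat-Seq with DESeq2 (adjusted p = 0.00985, DESeq2). Over the 8 members at the rim of the tunnel exit the median LFC was -0.12 in EC and -0.13 in PG/VG. There 1 member was called in EC, 12.5%, and 0 in PG/VG, where 5.38% and 1.9% of all tested genes were called lower. An LFC below 0 was found for 6 of the 8 in EC and all 8 in PG/VG. In PG/VG 0 of the 8 had every treated library below every control, against 6.37% of all tested genes. The central protuberance, the crown of the large subunit that faces the small one, had 7 members. Their median was -0.11 (EC) and -0.16 (PG/VG), with 0 called in either. At an unadjusted p under 0.05, 1 member was lower in EC, which is near the 12% of all tested genes. In PG/VG 3 were, where 9.21% of all tested genes were. Every treated library lay below every control for 1 of the 7 in EC, 14.3%, and 4 in PG/VG, 57.1%. MRPL58, a peptidyl-tRNA hydrolase of that region that releases stalled chains, had an LFC of -0.18 in EC (adjusted p = 0.161, edgeR) and -0.27 in PG/VG (adjusted p = 0.063, edgeR).

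The other large subunit members past the threshold were MRPL42, MRPL52, MRPL21 and MRPL15. MRPL42, which has no bacterial homologue, had 102, 90.0 and 103 CPM in the control, 75.6, 72.9 and 88.0 in PG/VG and 81.6, 74.3 and 82.7 in EC. Its LFC was -0.31 (SE 0.0717, adjusted p = 0.00637, edgeR) in EC and -0.32 (SE 0.0718, adjusted p = 0.0115, edgeR) in PG/VG, and its within-batch differences in EC were -0.32, -0.28 and -0.32. Its EC call was kept in all 9 fits that left out a single library, whereas its PG/VG call was lost in 3 of them (adjusted p up to 0.146, edgeR).

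MRPL52, also mitochondria-specific, had 45.7, 50.6 and 50.3 CPM in the control, 45.7, 45.5 and 33.7 in PG/VG and 41.6, 39.5 and 33.8 in EC. Every EC library was below the control, with an LFC of -0.36 (SE 0.0931, adjusted p = 0.0124, edgeR), whereas PG/VG overlapped it. MRPL21, a homologue of a bacterial large subunit protein, had 40.9, 47.0 and 33.1 CPM in the control, 35.3, 37.0 and 27.9 in PG/VG and 38.3, 34 and 25.7 in EC. The groups overlapped because batch 4 was low throughout, and within batches EC was lower by differences of -0.09, -0.47 and -0.36, with a fitted LFC of -0.30 (adjusted p = 0.0212, edgeR). MRPL15 had 53.3, 48.0 and 44 CPM in the control, 37.4, 39.7 and 36.2 in PG/VG and 48.0, 39.7 and 36.5 in EC. It passed in PG/VG with an LFC of -0.36 (SE 0.0841, adjusted p = 0.0159, edgeR), and in EC it had -0.23 (adjusted p = 0.0718, edgeR). In EC MRPL15 passed in some alternative fits, among them ComBat-Seq with DESeq2 (adjusted p = 0.0143, DESeq2).

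In the small subunit, MRPS9, MRPS18B, MRPS2 and MRPS25 passed in EC and the first 3 of these in PG/VG. MRPS9 (ENSG00000135972, chr2:105038069-105099960), the homologue of a bacterial protein whose tail reaches the transfer RNA in the decoding region, had 26, 23.8 and 24.7 CPM in the control, 19.2, 18.0 and 20.7 in PG/VG and 20.3, 19.5 and 16.4 in EC. The groups did not overlap, and the level fell by 24.6% in EC (LFC -0.41, SE 0.10, adjusted p = 0.00875, edgeR) and fell by 22.2% in PG/VG (LFC -0.36, SE 0.10, adjusted p = 0.0395, edgeR). MRPS2 had 52.0, 58.3 and 60.4 CPM in the control, 41.5, 42.9 and 47.1 in PG/VG and 47.4, 42.6 and 49.3 in EC. Its fall was numerically larger in PG/VG, with an LFC of -0.38 (adjusted p = 0.00725, edgeR), than in EC, with -0.29 (adjusted p = 0.0148, edgeR), and the difference between the condensates was 0.08 (SE 0.0783, adjusted p = 0.72, edgeR).

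MRPS18B (ENSG00000204568, chr6:30617840-30626395) is 1 of 3 paralogs that occupy different places: MRPS18C sits where the bacterial protein does, MRPS18B at a mitochondria-specific place in the small subunit and MRPS18A in the large subunit. MRPS18B had 83.5, 85.3 and 85.1 CPM in the control, 68.0, 73.9 and 70.4 in PG/VG and 71.3, 67.1 and 66.6 in EC. The control values were nearly level, and all 6 treated libraries were below them, with an LFC of -0.31 (SE 0.0723, adjusted p = 0.00624, edgeR) in EC and -0.26 (SE 0.0723, adjusted p = 0.0407, edgeR) in PG/VG. The EC call was kept in all 9 fits without a single library, but the PG/VG call was kept in only 4 of them (adjusted p up to 0.268, edgeR). No exon of another gene overlaps MRPS18B, and it has 2 named pseudogenes. For MRPS18A the LFC was -0.15 (EC) and -0.10 (PG/VG), and MRPS18C had -0.22 and -0.23, none of which passed; whether the paralogs differ in their response was not tested.

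MRPS25 had 17.6, 17.6 and 19.5 CPM in the control, 15.0, 15.9 and 15.8 in PG/VG and 14.6, 14.2 and 15.7 in EC. Its EC call (LFC -0.30, adjusted p = 0.0465, edgeR) lay at the edge of the threshold and was kept in only 1 of the 9 fits without a single library. DAP3, the GTP-binding protein of the small subunit that was first described in cell death, had 109, 113 and 100 CPM in the control, 99.6, 97.7 and 87.5 in PG/VG and 106, 93.1 and 85.8 in EC. Its LFC was -0.18 in both exposures, with adjusted p values of 0.102 and 0.155 (edgeR), so DAP3 did not pass in the main fit. In EC it did pass in some alternative fits described further on. These were ComBat-Seq with DESeq2 (adjusted p = 0.00963, DESeq2) and the fit with a GC and length trend removed (adjusted p = 0.00767, edgeR). Thinned counts (adjusted p = 0.0409, edgeR) and the fit without EC replicate 2 (adjusted p = 0.0375, edgeR) were the others. MRPS36, the member that is not part of the mitoribosome, had LFCs of -0.14 and -0.17 and did not pass in the main fit either.

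**Figure D3:**
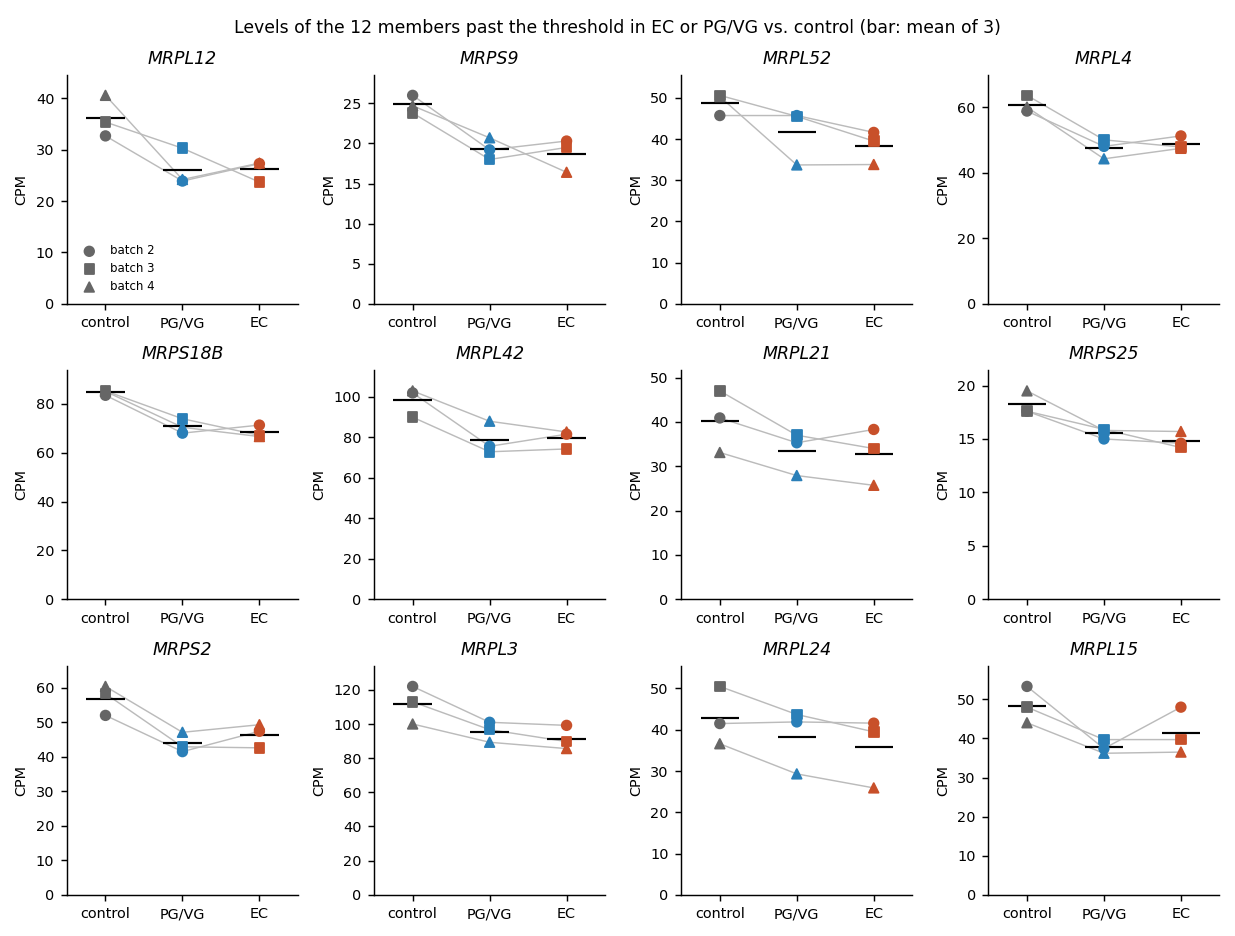
CPM of the 12 members past the threshold in EC or PG/VG vs. control, for each library, with lines joining libraries of the same batch and black bars at the mean of 3. In MRPL12 the controls lie at 32.7 to 40.6 CPM and the treated libraries at 23.7 to 30.3, while in MRPL21 and MRPL24 batch 4 is low in all 3 conditions.

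A few members stood on the other side of 0. MRPS24, at the channel through which the message enters, had 3.94, 5.02 and 4.39 CPM in the control, 4.10, 4.92 and 3.77 in PG/VG and 6.15, 5.66 and 6.40 in EC. It was the only member with every EC library above every control library, a pattern that 9.83% of all tested genes had. The rise relative to the control was 0.45 on the log2 scale (SE 0.161, adjusted p = 0.068, edgeR) and missed the threshold, as did the difference of 0.52 from PG/VG (SE 0.156, adjusted p = 0.135, edgeR). These values rest on only 62 to 155 counts, and other genes share 23.2% of the exons. MRPL34 had an LFC of 0.22 in EC (adjusted p = 0.158, edgeR) and -0.04 in PG/VG, and MRPS26 and MRPL41 had 0.17 and 0.16 in EC with adjusted p values of 0.261 and 0.558 (edgeR).

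The comparison of the condensates with each other set the commercial liquid with nicotine and flavor against the carrier alone. The ratio of propylene glycol to glycerol in the EC liquid is not stated. A difference in the carrier could thus not be told apart from nicotine and flavor. In EC vs. PG/VG 0 of the 78 members passed (edgeR; 0.855% of all tested genes did), and DESeq2 and the ComBat-Seq route also called 0. At an unadjusted p under 0.05, 2 members were higher, MRPS24 and MRPL34, and 0 lower, where 6.66% of all tested genes were higher and 6.22% lower. The median LFC was 0.036 and the members ranged from -0.15 to 0.52, with 22 below 0. For MRPL12 the difference between the condensates was 0.01 (SE 0.104), for MRPL4 0.04 (SE 0.0759) and for MRPS18B -0.05 (SE 0.0720), which sets the precision for these genes and does not show that the condensates act alike.

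Within batches the fall in EC was uneven. The median difference of the members in EC vs. control was -0.014 in batch 2, -0.19 in batch 3 and -0.23 in batch 4, so batch 2 showed almost none. In PG/VG vs. control it was -0.17, -0.12 and -0.26, below 0 in every batch, and in EC vs. PG/VG it was 0.11, -0.046 and 0.032, with no common sign. Without EC replicate 2, 16 members were called in EC, where 5.57% of all tested genes were called lower, and the median LFC was -0.20. Without PG/VG replicate 2, 0 members were called in PG/VG (edgeR). The share of all tested genes in that fit is not given here, so the 0 is not read as particular to the members. The cytosolic ribosomal protein genes were likewise nearest to 0 in batch 2 of EC vs. control, at a median of -0.077, against -0.29 and -0.45 in batches 3 and 4.

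**Figure D4:**
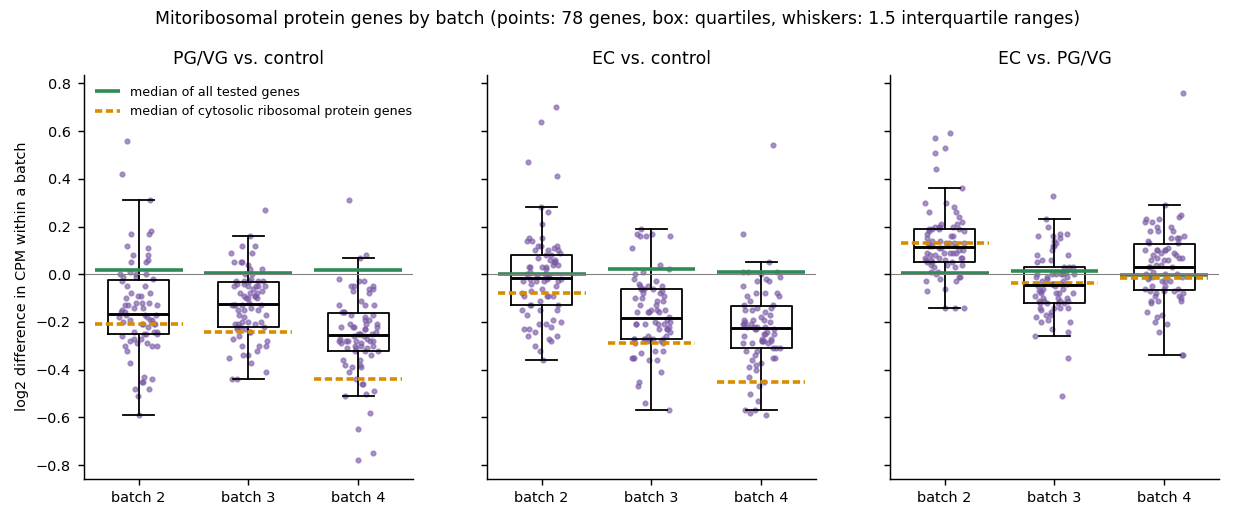
Log2 difference in CPM within each batch for the 78 members (points, with box and median), with the median of all tested genes in green and of the cytosolic ribosomal protein genes in dashed orange. The members' median in EC vs. control is -0.014 in batch 2 and -0.23 in batch 4, and in PG/VG vs. control it is below 0 in all 3 batches.

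The large and small subunits moved by nearly the same amount. In EC 7 of 50 large and 4 of 27 small subunit members were called, 14.0% and 14.8%, with median LFCs of -0.14 and -0.12. In PG/VG 4 and 3 were called, 8.0% and 11.1%, with medians of -0.17 in each subunit. Of all tested genes 5.38% were called lower in EC and 1.9% in PG/VG. The difference of the medians, large minus small, was -0.027 in EC, -0.0069 in PG/VG and 0.0083 in EC vs. PG/VG, and in EC and PG/VG its sign changed without control replicate 4, to 0.017 and 0.028. Taken within batches 2, 3 and 4, it was 0.072, 0.027 and -0.037 in EC. In PG/VG it was 0.027, 0.015 and -0.053, so neither exposure had a common sign. Large subunit proteins with a bacterial homologue had a median of -0.15 (EC) and -0.18 (PG/VG), and mitochondria-specific ones had -0.11 and -0.15. In the small subunit the same classes had -0.11 and -0.20, and -0.13 and -0.16, so neither class was lower throughout.

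Summed over its genes, the large subunit had 2474, 2513 and 2734 CPM in the control libraries of batches 2, 3 and 4, 2263, 2299 and 2273 in PG/VG and 2454, 2216 and 2343 in EC. The small subunit had 1382, 1383 and 1410 CPM in the control, 1242, 1252 and 1214 in PG/VG and 1342, 1227 and 1222 in EC. Both sums were lower in all treated libraries than in all controls. The ratio of large to small was 1.85 ± 0.0796 in the control, 1.84 ± 0.0258 in PG/VG and 1.85 ± 0.0582 in EC (SD, n = 3). The difference was smaller than the spread between libraries, which includes the spread between batches. The sum over all members changed by -1.54%, -11.6% and -14.0% in EC and by -9.06%, -8.88% and -15.9% in PG/VG in batches 2, 3 and 4. Fewer transcripts per cell and a shift in the rest of the RNA cannot be told apart from such shares of counts.

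**Figure D5:**
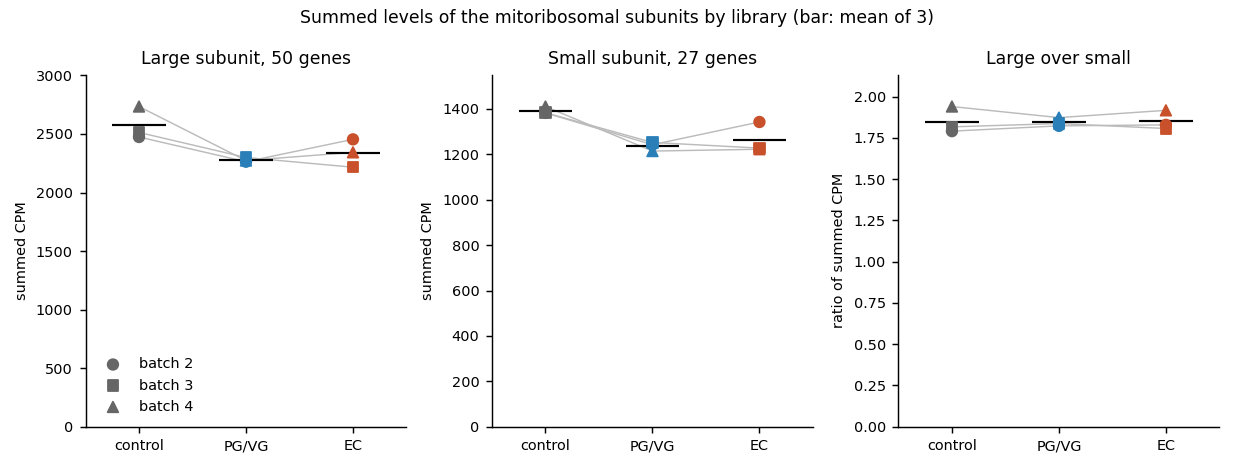
Summed CPM of the 50 large and 27 small subunit genes and their ratio in each library, with lines joining libraries of the same batch and black bars at the mean of 3. The sums are lower in treated libraries, and the ratio stays between 1.79 and 1.94.

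The 4 tested proteins of the mitoribosome whose symbols fall outside the rule, GADD45GIP1, CHCHD1, AURKAIP1 and PTCD3, had median LFCs of -0.17 in EC and -0.21 in PG/VG. In EC 0 were called, and 2 were lower at an unadjusted p under 0.05, where 12% of all tested genes were. In PG/VG 1 was called lower, where 1.9% of all tested genes were. That gene, GADD45GIP1, had 73.1, 77.6 and 73.3 CPM in the control and 68.9, 61.2 and 55.7 in PG/VG (LFC -0.28, adjusted p = 0.0467, edgeR). All 4 had an LFC below 0 in each exposure.

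The factors that serve and assemble the mitoribosome had medians nearer to 0. Of 11 mitochondrial translation factors, 1 was called lower in EC, 9.09%, and 0 in PG/VG, where 5.38% and 1.9% of all tested genes were. Their medians were -0.078 and -0.088. The 1 called was MRRF, the recycling factor that splits the subunits after termination, with an LFC of -0.31 (adjusted p = 0.023, edgeR) in EC. Of 27 assembly factors, 2 were called lower in EC, 7.41%, and 1 in PG/VG, 3.7%, with medians of -0.063 and -0.077. These shares rest on 1 or 2 genes each. MRM3, which methylates the large ribosomal RNA, had an LFC of -0.38 in EC (adjusted p = 0.00497, edgeR), and C1QBP, a matrix protein needed for mitochondrial translation, had 200, 200 and 212 CPM in the control, 146, 151 and 164 in PG/VG and 169, 153 and 158 in EC. For C1QBP all treated libraries were below the controls, with an LFC of -0.35 (adjusted p = 0.00149, edgeR) in EC and -0.41 (adjusted p = 0.00151, edgeR) in PG/VG.

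Of 13 genes for mitochondrial transcription and RNA processing, 3 were called lower in EC, 23.1%, and 0 in PG/VG, with medians of -0.13 and -0.15. Of all tested genes 5.38% and 1.9% were called lower. The 3 called were TFB2M, a factor for transcription initiation on mitochondrial DNA (LFC -0.40, adjusted p = 0.0146, edgeR), LRPPRC, which stabilizes mitochondrial messages (-0.29, adjusted p = 0.00513), and PNPT1, an RNA-degrading phosphorylase (-0.30, adjusted p = 0.0144). The ribosomal RNAs made in the mitochondrion itself showed no common direction. For MT-RNR1 the LFC was 0.24 (EC) and 0.10 (PG/VG), and MT-RNR2 had -0.08 and -0.15, none of which passed, and poly-A selection makes their counts a poor measure of the rRNA. No gene of these lists was called higher in either exposure.

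The cytosolic ribosomal protein genes, the counterpart outside the mitochondrion, had lower medians than the members. Of 79 tested, 49 were called lower in EC and 46 in PG/VG, 62.0% and 58.2%, against 5.38% and 1.9% of all tested genes. The medians were -0.28 and -0.30, and all 79 had an LFC below 0 in each. This is a description, since the difference between the families was not tested. Of the cell type markers, KRT7 (LFC -0.45), KRT8 (-0.25), KRT18 (-0.46), CDH2 (-0.25) and FN1 (-0.58) were called lower in EC, and VIM (-0.27, adjusted p = 0.0441, edgeR) in PG/VG. In EC the other tested epithelial markers had values above 0 and did not pass, EPCAM with 0.57, CDH1 with 0.36 and KRT19 with 0.18. The part of these markers in the result on the members was not tested.

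The members share features that bear on how they were counted. Their canonical transcripts are short, with a median of 1287 bases against 2962 over all tested genes, and their GC content, with a median of 48.0%, is close to that of all tested genes, 48.6%. They lie on 21 chromosomes. Across the 78 members the LFC in EC had a Spearman correlation of 0.147 with GC content, -0.143 with length and -0.0407 with mean level. For PG/VG these values were 0.0505, 0.0368 and 0.0122, and the genes share all 9 libraries. Over all tested genes the EC values were 0.133, 0.0933 and -0.222, and the PG/VG values 0.145, 0.224 and -0.136. Shorter genes thus tended to have lower LFCs over all tested genes, more so with PG/VG. Beyond a fit with a GC and length trend removed, given further on, the part of length in the members' fall was not tested. Of the 59 members with less than 20% of their exon length shared with other genes, 7 were called in EC, 11.9%, and 4 in PG/VG, 6.78%, with medians of -0.13 and -0.17. The 42 members without a named pseudogene had the same medians, with 8 called in EC, 19.0%, and 4 in PG/VG, 9.52%. Of all tested genes 5.38% were called lower in EC and 1.9% in PG/VG. Thinning every library to the smallest, which removes the difference in depth, gave 11 members called in EC and 8 in PG/VG, with 5.76% and 2.13% of all tested genes called lower, and medians of -0.14 and -0.17. The called members were not all the same. In EC the calls of MRPL24 and MRPS25 were lost and DAP3 was gained, and in PG/VG the call of MRPS18B was lost.

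The other calls also varied when single libraries were left out. Of the 9 such fits, the EC call was kept in 8 for MRPL3 and MRPS9, in 7 for MRPL4, in 6 for MRPL52 and MRPS2, and in 5 for MRPL21. The PG/VG call was kept in 7 for MRPS2, in 6 for MRPL4 and MRPL15, and in 4 for MRPS9. The calls also depended on the batch block, since without it 0 members passed in either exposure (edgeR), and 0 of all tested genes were called lower. Removing a trend of the fold change with GC content and length in the same blocked fit raised the calls to 24 in EC, 23 lower and 1 higher, the higher one being MRPS24, and to 24 in PG/VG, with 17.7% and 8.48% of all tested genes then called lower.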

How the data were processed

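Paired-end poly-A reads were trimmed (fastp), mapped to GRCh38.p12 (STAR) and counted by the authors over exons with featureCounts (Subread 2.0.4), without multi-mapping reads or reads over several genes; the strand setting is not given in the sources used here. The deposited values are raw counts per gene. Symbols, biotypes and coordinates came from GENCODE release 44 (GRCh38), promoters from RefSeq (GRCh38.p14). Genes reaching 10 counts in 3 or more libraries were fitted with edgeR 4.0.16 (TMM, condition plus batch, all 9 libraries, Benjamini-Hochberg, threshold 0.05). CPM use TMM library sizes. SE was taken from the LFC and the F statistic. DESeq2 1.42.0 and ComBat-Seq (sva 3.50.0) served as alternatives. The fit was tested on simulated data. Members and lists were chosen with earlier results of these data known.

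Members named were the given markers, genes the study's text names, the MRPS18 paralogs, the stalk, MRPL45, MRPL58, MRPS36, the 5 largest changes past the threshold in each comparison, and the 3 highest and 3 lowest levels; MRPL24, MRPL34, MRPL41, MRPL42, MRPS10, MRPS21, MRPS24, MRPS25 and MRPS26 and the structural groups were named after their values were seen. Libraries with the same batch number deviated together (correlations of 0.315 to 0.693 in 9 pairs across conditions, against -0.52 to 0.406 for different numbers), and the labels call that number a batch, so the block was kept in the main fit. No 2 libraries of a condition agreed within counting noise. The authors describe the 3 libraries per condition as biological replicates.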

Additional observations from a re-analysis of the deposited data

How the results depend on the processing

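The direction of the median LFC of the members was the same under every alternative in EC and in PG/VG vs. control, but the number of calls was not stable. In EC vs. control 20 members were called after ComBat-Seq with DESeq2 (9.79% of all tested genes were then lower, against 5.38%), 24 with a GC and length trend removed in the blocked fit (17.7%), 0 with no replicate block and 6 at an adjusted p under 0.01, against 11. In PG/VG vs. control 19 were called with the 2 groups alone (3.99% of all tested genes were then lower, against 1.9%), 26 after ComBat-Seq with DESeq2 (5.89%), 24 with the trend removed (8.48%), 0 with no replicate block and 2 at an adjusted p under 0.01, against 7. In all alternatives the called members were lower, except for MRPS24, higher in EC, with the trend removed, with library size alone and without EC replicate 3, and MRPS26, higher in EC without control replicate 4. Leaving out single libraries gave 5 to 16 calls in EC and 0 to 17 in PG/VG. In EC there were 5 without EC replicate 3, EC replicate 4 or control replicate 3. In those fits 3.5%, 3.39% and 2.89% of all tested genes were called lower, against 5.57% in the fit with 16 calls. In PG/VG there were 0 without PG/VG replicate 2, 1 without control replicate 3, 4 without control replicate 4 and 17 without EC replicate 2. For these PG/VG fits and for the threshold of 0.01 the share of all tested genes is not given here. Those counts alone therefore describe no change particular to the members. The median LFC then ranged from -0.20 to -0.079 in EC, from -0.21 to -0.13 in PG/VG and from -0.0052 to 0.073 in EC vs. PG/VG, where 0 members passed throughout. The large minus small difference ranged from -0.06 to 0.017, from -0.021 to 0.028 and from -0.003 to 0.036, and in PG/VG it was 0.011 with the trend removed and 0.0069 with no replicate block. With library size alone the EC median was -0.072, against 0.068 over all tested genes, and MRPS24 passed (LFC 0.51, adjusted p = 0.0352, edgeR). With the trend removed the EC median of the members was -0.16, against -0.061 over all tested genes. In the main fit these medians were -0.13 and 0.0078. For PG/VG the members' median was -0.17 with the trend removed, where all tested genes had -0.047. The main fit gave -0.17 and 0.013 for PG/VG. Thinning was chosen after seeing the data. The cause of these changes was not tested. Counts per member and library ran from 40 to 4547, with a median of 882.5.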
